A study of Homo sapiens with 18 samples.

Results

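The genes described here encode the nuclear pore complex and the carriers that move proteins and RNA through it. The list held 52 genes, chosen by their names in the annotation of the array, and 51 of them, all except NXF1, had a probe set named for them alone. These 51 genes had 152 of the 54675 probe sets on the array. After a filter on low signal (a mean above log2(40) over the 9 arrays of a time), 133 of the 152 were tested at 6 h and 138 at 24 h, and each of the 51 genes kept at least 1. Another 3 probe sets carried the name of a listed gene together with those of other genes and were not counted.

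SH-SY5Y is a line from a human neuroblastoma, and retinoic acid turns its cells towards neurons. All cells in the experiment had received 10 μM retinoic acid for 7 days and had then been kept for 24 h without it. They were exposed for 30 min to 0, 1 or 5 μM cocaine, the medium was replaced, and RNA was taken at 6 or at 24 h. Each of the 6 combinations of dose and time had 3 Affymetrix U133 Plus 2.0 arrays, 18 in all, and each array carried RNA pooled from 3 dishes, so that the p-values measure the spread between pools from 1 cell line.

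The pore is a ring of nucleoporins that spans the nuclear envelope. Its inner and outer rings form the scaffold, its central channel is filled with nucleoporins rich in phenylalanine-glycine repeats, and filaments and a basket extend into the cytoplasm and the nucleus. Importins carry cargo inwards and exportins carry it outwards, and the small GTPase Ran, loaded with GTP in the nucleus and stripped of it in the cytoplasm, sets the direction.

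In the 300 bases around the start of each gene in the RefSeq table (build GRCh38.p14, 250 bases before to 50 after the start), 60 promoters of 47 of the listed genes were found among 35116 promoters in all. The letters CCGGAAG, bound by factors of the ETS family, were present on either strand in 17 of the 60 promoters (28.3%) and in 10.3% of all promoters. The NRF1 motif, a palindrome, was present in 3 of 60 (5%) and in 1.24% of all. CCAAT was present in 23 (38.3%) and in 34.6% of all, GGGCGGGG, bound by SP1, in 16 (26.7%) and in 22.8%, and TATAAA in 3 (5%) and in 11.5%. Matches of different motifs were counted separately where they overlapped, and some genes entered with several promoters. The median number of CG pairs was 26.5 in the promoters of the listed genes and 14 in all promoters. A match is a description of the letters only. Of the 5 genes with a probe set that passed the test for 5 against 0 μM at 6 h, 4 had a match. This was a match to any of the motifs, and the share of all promoters with any match was not counted. No match was found for RANBP2, which may have been among the listed genes without a promoter here. The stretches below, from upstream of the start, show their ETS and CCAAT matches, each 5′ to 3′ on the strand of the gene, with the match in capitals.

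NUP58, chr13:25301548-25301577, plus strand, CCGGAAG read on the other strand: tgacggttacaCTTCCGGcgggctacgtgc

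TPR, chr1:186375401-186375430, minus strand, CCAAT read on the other strand: gggcggtgcagcATTGGgctcccggaaaag

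TPR, chr1:186375315-186375344, minus strand, CCAAT read on the other strand: ggaagccggaaaATTGGgtgcgcaagagga

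KPNA6, chr1:32107976-32108005, plus strand, CCAAT as spelled: taggcgattgggCCAATaaagcgtttcgtc

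IPO5, chr13:97953448-97953477, plus strand, CCAAT as spelled: agttctcaaaggCCAATagatagctccctt

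The promoter of NUP58 thus held the ETS letters but not CCAAT, while those of TPR, KPNA6 and IPO5 held CCAAT but not the ETS letters. KPNA6 held CCAAT on the other strand as well, next to the match shown, and TATAAA farther upstream.

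Values are log2 signals, and a difference of 1 on this scale is a 2-fold difference. Median signals ranged from 4.96 to 5.01 on the arrays of 6 h and from 5.30 to 5.35 on those of 24 h. The 2 times were normalized apart, so levels were compared only within a time. Of 9 markers of noradrenergic neuroblastoma measured, 8 passed the filter at both times, and tyrosine hydroxylase (TH), at 3.35 to 3.61 at 6 h, did not. Of 9 markers of other cell types measured, COL1A1, DCN, LUM and SOX10 passed it and GFAP, PTPRC, CD14, S100B and COL1A2 did not. Untreated arrays 2 and 3 of 6 h stood apart from untreated array 1 in CYP26A1, an enzyme induced by retinoic acid (10.69 and 10.99 against 5.01). The arrays with cocaine at 6 h lay near untreated array 1, at 4.95 to 5.61. Other markers of the retinoic acid response were split alike among untreated arrays 1, 2 and 3 of 6 h. CYP26B1 was at 8.48, 12.33 and 12.18, DHRS3 at 6.81, 10.78 and 10.66, and RARB at 8.41, 9.83 and 9.89. At these markers, untreated arrays 2 and 3 were thus above every array with cocaine at 6 h. In CYP26A1, untreated array 3 of 24 h also stood apart from its 2 partners (9.55 against 5.40 and 6.04). The spike-in difference bioD minus cre was lower at 6 h on all treated arrays than on all untreated ones (by 0.50 at 5 μM). The 3′ minus 5′ signal of ACTB was lower by 0.34 at 5 μM than without cocaine at 6 h and higher by 0.30 at 24 h. Each of these 3 differences had a 2-sided exact permutation p of 0.1, the smallest that 3 arrays against 3 can give. At 6 h untreated array 1 (0.548) lay next to the arrays with 5 μM (0.493 to 0.539), and untreated arrays 2 and 3 stood at 1.12 and 0.894. The same measure of GAPDH differed by −0.02 at 6 h and 0.02 at 24 h (exact permutation p = 0.3 and 0.4). The part of these array-wide differences in the results that follow was not tested.

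With 5 μM cocaine, 6 h after exposure, 8 of the 133 probe sets passed the test (p from limma, adjusted over all probe sets by Benjamini-Hochberg, under 0.10), and they belonged to 5 of the 51 genes. Higher signals were found at 3 probe sets of TPR, 1 of NUP58 and 1 of RANBP2, and lower ones at 2 of KPNA6 and 1 of IPO5. The share of 6.02% compares with a percentage of 2.98 over all probe sets tested (670 of 22455). The list was chosen with earlier results of these data known, so the shares given here and below describe the list only. In the higher direction it was 5 of 133 against 1.57% of all, and in the lower direction 3 of 133 against 1.42%. With the replicate number as a block, which compares arrays of the same number, 25 probe sets of 15 genes passed, a share of 18.8% where all probe sets had 18.6%. These were 18 higher (13.5%, against 7.75% of all) and 7 lower (5.26%, against 10.9% of all). On all 3 arrays with 5 μM, 20 probe sets were above every untreated array (15%, against 8.09% of all) and 17 below (12.8%, against 13.1%). The median change of the 133 was 0.0027, with 68 above and 65 below 0, and the median over all probe sets was −0.02. The median size of a change, taken without sign, was 0.075 for the listed genes and 0.095 for all.

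TPR, a long coiled-coil protein that builds the filaments of the nuclear basket, held the 2 largest changes. Its 5 probe sets are given side by side. At 1557227_s_at the untreated arrays of 6 h were at 7.87, 7.54 and 7.34, those with 1 μM at 8.31, 8.42 and 7.65, and those with 5 μM at 8.76, 8.54 and 8.59. All 3 arrays with 5 μM lay above all those without cocaine, and 1 of the arrays with 1 μM lay among the untreated ones. The difference of 5 from 0 μM was 1.04 ± 0.205 (SE, n = 3 arrays per dose), a 2.06-fold higher signal, with limma's adjusted p of 0.0646.

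At 215220_s_at the untreated arrays were at 5.53, 5.28 and 5.41, those with 1 μM at 5.27, 5.67 and 5.54, and those with 5 μM at 6.08, 6.08 and 6.36. The arrays with 1 μM overlapped those without cocaine, and the 3 with 5 μM were above both groups. The difference of 5 from 0 μM was 0.77 ± 0.122 (adjusted p = 0.0441), a 1.70-fold higher signal. This probe set had the smallest p of the 133. Its means of 5.41 and 5.49 with 0 and 1 μM lay close to the signal filter of 5.32.

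At 201730_s_at the signals were 10.51, 10.49 and 10.72 without cocaine, 10.66, 10.86 and 10.86 with 1 μM, and 10.99 to 11.03 with 5 μM. The lowest array with 5 μM was above every array of the other doses. The difference of 5 from 0 μM was 0.43 ± 0.0804 (adjusted p = 0.0610), a 1.34-fold higher signal.

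The other 2 probe sets of TPR did not move past the threshold. At 201731_s_at the signals were 10.58, 10.59 and 10.68 without cocaine and 10.53, 10.63 and 10.61 with 5 μM, a difference of −0.03 ± 0.0589 (adjusted p = 0.848). At 228709_at they were 7.77, 7.90 and 8.11 without cocaine and 7.90, 7.90 and 7.97 with 5 μM, a difference of −0.01 ± 0.119 (adjusted p = 0.984). Dose groups overlapped at both. The sign of both differences turned with the processing, with values under 0.15 in size throughout.

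**Figure D1:**
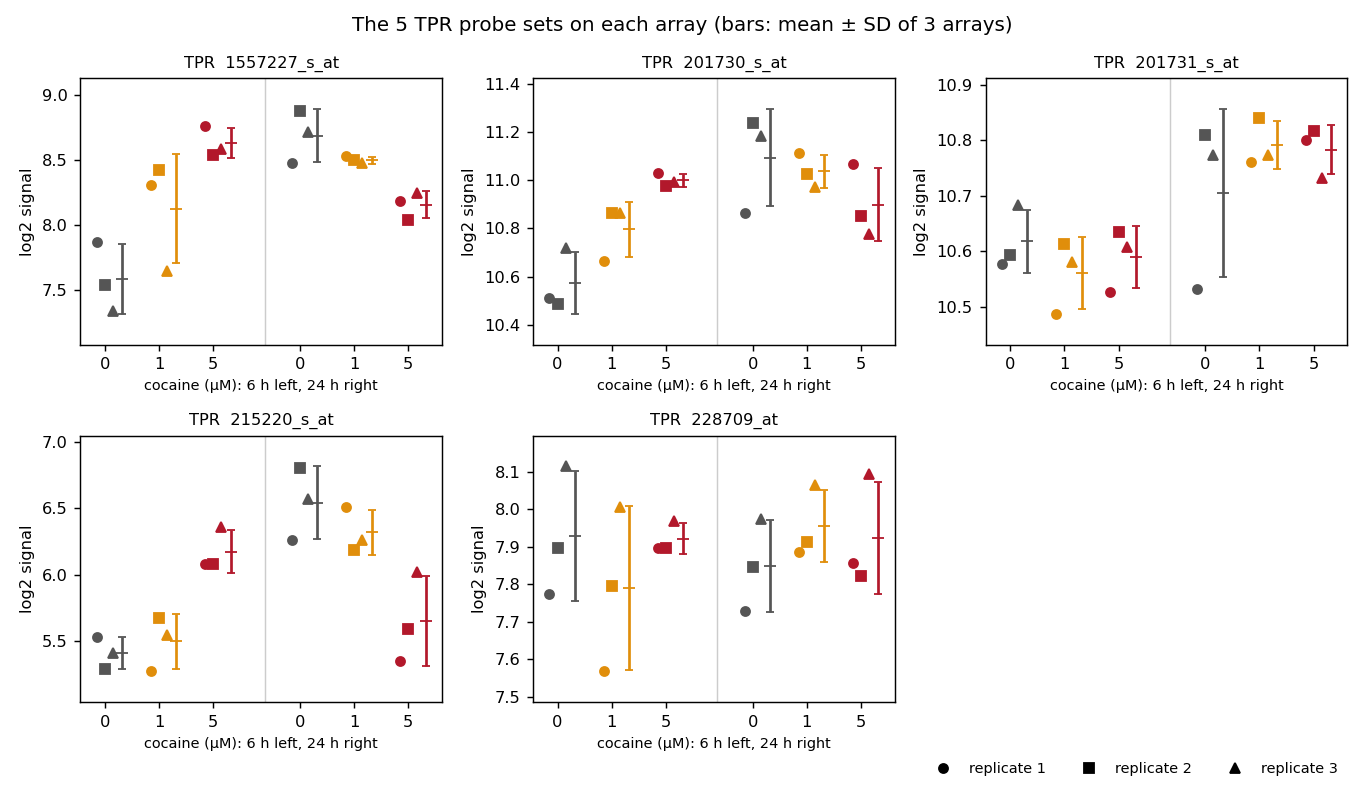
Log2 signal (vertical axis, a scale of its own in each panel) of the 5 TPR probe sets on each of the 18 arrays, by cocaine dose in μM (horizontal axis), 6 h on the left and 24 h on the right of each panel. Points are arrays, marked by replicate number, and bars are means ± SD of 3 arrays. At 6 h the arrays with 5 μM lie above the untreated ones at 1557227_s_at, 201730_s_at and 215220_s_at, and the groups overlap at 201731_s_at and 228709_at. Levels of the 2 times were normalized apart and cannot be set against each other.

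These TPR calls depended on a few arrays. Without untreated arrays 2 and 3 of 6 h, the 3 differences were 0.75, 0.64 and 0.49 (adjusted p = 0.347, 0.262 and 0.225), in the order 1557227_s_at, 215220_s_at and 201730_s_at.

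The other proteins of the basket are NUP153, which anchors it, and NUP50, a cofactor of importin alpha. NUP153 had 1 probe set above the filter, with a difference of −0.10 ± 0.0880 (adjusted p = 0.616). The 4 kept probe sets of NUP50 ranged from −0.22 to 0.28 and did not pass the test, but with the block 222583_s_at was called higher (adjusted p = 0.0866) and 218294_s_at lower (0.0759). At 222583_s_at the untreated arrays of 6 h were at 5.82, 5.58 and 5.47 and those with 5 μM at 5.82, 5.99 and 5.88. At 218294_s_at they were at 9.80, 9.90 and 9.84 without cocaine and at 9.62, 9.59 and 9.69 with 5 μM. At neither probe set of NUP50 did the untreated arrays overlap those with 5 μM, though at the first the gap was below 0.01.

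Among the cytoplasmic filaments and their mRNA export platform, 1 of 13 probe sets passed. It belonged to RANBP2, a giant protein that binds Ran and acts as a SUMO ligase. Its probe set 201711_x_at was at 7.66, 7.55 and 7.53 without cocaine, at 7.83, 8.0 and 7.67 with 1 μM, and at 7.97, 7.95 and 8.0 with 5 μM. The difference of 5 from 0 μM was 0.39 ± 0.0817 (adjusted p = 0.0741), a 1.31-fold higher signal, and the arrays with 5 μM lay above all untreated ones. The suffix of this probe set, x_at, marks probes that may also bind related transcripts. IPO9 244703_x_at and NUP205 222382_x_at, named below, carry it too. At the other 3 probe sets of RANBP2 the differences were from 0.02 to 0.07, and none passed. NUP214, NUP88, NUP98 and RAE1, which form the platform on which exported mRNA is released, had no probe set past the threshold, and the 13 probe sets of this group ranged from −0.12 to 0.39.

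In the central channel, 1 of 7 probe sets passed. NUP58, which forms the channel with NUP62 and NUP54, was at 6.17, 6.04 and 6.05 at probe set 223984_s_at without cocaine, at 6.11, 6.48 and 6.25 with 1 μM, and at 6.51, 6.58 and 6.65 with 5 μM. The 5 μM arrays were above all others of that time, and the difference from 0 μM was 0.49 ± 0.0930 (adjusted p = 0.0610), a 1.41-fold higher signal. A second probe set of NUP58, 225047_at, had the opposite sign. It was at 7.69, 7.61 and 7.55 without cocaine, at 6.92, 7.29 and 7.35 with 1 μM and at 7.17, 7.16 and 7.31 with 5 μM, so that all treated arrays were below the untreated ones. The difference of −0.40 ± 0.110 did not pass (adjusted p = 0.125) and was called lower with the block (0.0586). The remaining probe sets of NUP58 differed by 0.12 and 0.00. NUP62 and NUP54 had no change past the threshold at 6 h.

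The 12 probe sets of the outer ring, the Y-shaped complex of the scaffold, ranged from −0.23 to 0.27 and none passed the test. The smallest p belonged to SEH1L, a small propeller protein shared with a complex at the lysosome. Its probe set 223225_s_at was at 6.53, 6.27 and 6.10 without cocaine and at 6.67, 6.60 and 6.45 with 5 μM. The groups overlapped, and the difference of 0.27 ± 0.111 (adjusted p = 0.257) was called with the block (0.0505). Without untreated arrays 2 and 3 it was 0.04. The 8 probe sets of the inner ring, with NUP93, NUP155, NUP188, NUP205 and NUP35, ranged from −0.07 to 0.14, and none passed with or without the block. NUP35 was at 9.64, 9.58 and 9.68 without cocaine and at 9.73, 9.79 and 9.80 with 5 μM, a difference of 0.14 ± 0.058 (adjusted p = 0.271) between groups that did not overlap.

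Among the pore membrane proteins NDC1, POM121 and NUP210 and their partner AAAS, 9 probe sets ranged from −0.30 to 0.17 and none passed. POM121, which anchors the pore in the membrane, had the lowest value. Its probe set 205096_at was at 6.10, 6.30 and 6.51 without cocaine and at 6.03, 5.90 and 6.11 with 5 μM, and untreated array 1 lay within the treated range. The difference was −0.30 ± 0.10 (adjusted p = 0.191), and −0.09 without untreated arrays 2 and 3. The block called it lower (0.0775).

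The Ran cycle genes are RAN itself, its nucleotide exchange factor RCC1, its activating protein RANGAP1 and the cofactor RANBP1. None of their 10 probe sets passed, and they ranged from −0.17 to 0.29. The highest was RANBP1 at 221915_s_at, with 5.36, 5.33 and 5.44 without cocaine and 5.76, 5.75 and 5.50 with 5 μM. The groups did not overlap, and the difference of 0.29 ± 0.087 (adjusted p = 0.148) was called with the block (0.0823). RANBP1 had 2 other probe sets, and its 3 values spread over 0.47.

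Importins alpha are the adaptors that read classical nuclear localization signals. Among their 18 probe sets, 2 fell and none rose without the block. Both belonged to KPNA6. At 212101_at the signals were 8.44, 8.34 and 8.37 without cocaine, 8.19, 8.13 and 8.03 with 1 μM and 8.06, 7.99 and 8.10 with 5 μM. All 6 treated arrays were below the 3 untreated ones, and the difference of 5 from 0 μM was −0.34 ± 0.0616 (adjusted p = 0.0602), a 1.26-fold lower signal. At 226976_at the signals were 8.80, 8.86 and 8.73 without cocaine, 8.51, 8.68 and 8.55 with 1 μM and 8.55, 8.41 and 8.53 with 5 μM. Again every treated array was below every untreated one, with a difference of −0.30 ± 0.0675 for 5 μM (adjusted p = 0.0879), a 1.23-fold lower signal.

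The other 2 probe sets of KPNA6 did not follow. At 212103_at the signals were 8.45 to 8.48 without cocaine and 8.43 to 8.47 with 5 μM, a difference of −0.00 ± 0.0555. At 212102_s_at they were 5.58, 5.23 and 5.34 without cocaine and 5.81, 5.68 and 5.58 with 5 μM, a difference of 0.31 ± 0.0938 (adjusted p = 0.158) that the block called higher (0.0465).

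KPNA1 was split in the same manner, although none of its 6 probe sets passed without the block. At 202059_s_at the signals were 8.01, 8.23 and 7.98 without cocaine and 7.74, 7.83 and 7.76 with 5 μM, a difference of −0.29 ± 0.0731 (adjusted p = 0.103, and 0.0269 with the block). At 202058_s_at they were 6.56, 6.39 and 6.26 without cocaine and 6.74, 6.89 and 6.66 with 5 μM, a difference of 0.36 ± 0.102 (adjusted p = 0.138, and 0.0342 with the block). Neither pair of groups overlapped. The other 4 probe sets of KPNA1 lay between −0.01 and 0.13, and those of KPNA2, KPNA3 and KPNA4 did not pass without the block. KPNA4 209653_at had means of 5.25, 5.27 and 5.51 with 0, 1 and 5 μM. With the filter at 5.32, it was kept only through the group in which it was high.

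Importins of the beta family bind cargo directly or through an alpha adaptor, and 1 of their 31 probe sets passed. IPO5, which carries ribosomal proteins and histones among other cargo, was at 9.92, 9.99 and 9.90 at 211953_s_at without cocaine, at 9.34, 9.63 and 9.65 with 1 μM and at 9.55, 9.53 and 9.65 with 5 μM. All treated arrays were below all untreated ones. The difference of 5 from 0 μM was −0.36 ± 0.0873 (adjusted p = 0.0998), a 1.28-fold lower signal close to the threshold. The other 4 probe sets of IPO5 ranged from −0.18 to 0.23 and did not pass. KPNB1, the beta partner of the alpha adaptors, and TNPO1, which carries RNA-binding proteins, had 1 and 4 probe sets called higher with the block only.

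No exportin passed among 14 probe sets of XPO1, XPO4, XPO5, XPO7, XPOT and CSE1L, with or without the block, and these ranged from −0.13 to 0.20. The highest was XPO4 at 218479_s_at, with 5.85, 5.82 and 5.72 without cocaine and 5.97, 5.85 and 6.17 with 5 μM, a difference of 0.20 ± 0.082 (adjusted p = 0.264) between groups that overlapped. NXT1, the partner of the bulk mRNA export receptor, was at 9.07, 9.05 and 9.22 without cocaine, at 9.35, 9.34 and 9.41 with 1 μM and at 9.23, 9.24 and 9.37 with 5 μM. Its difference at 5 μM was 0.17 ± 0.066 (adjusted p = 0.248, and 0.0551 with the block).

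**Figure D2:**
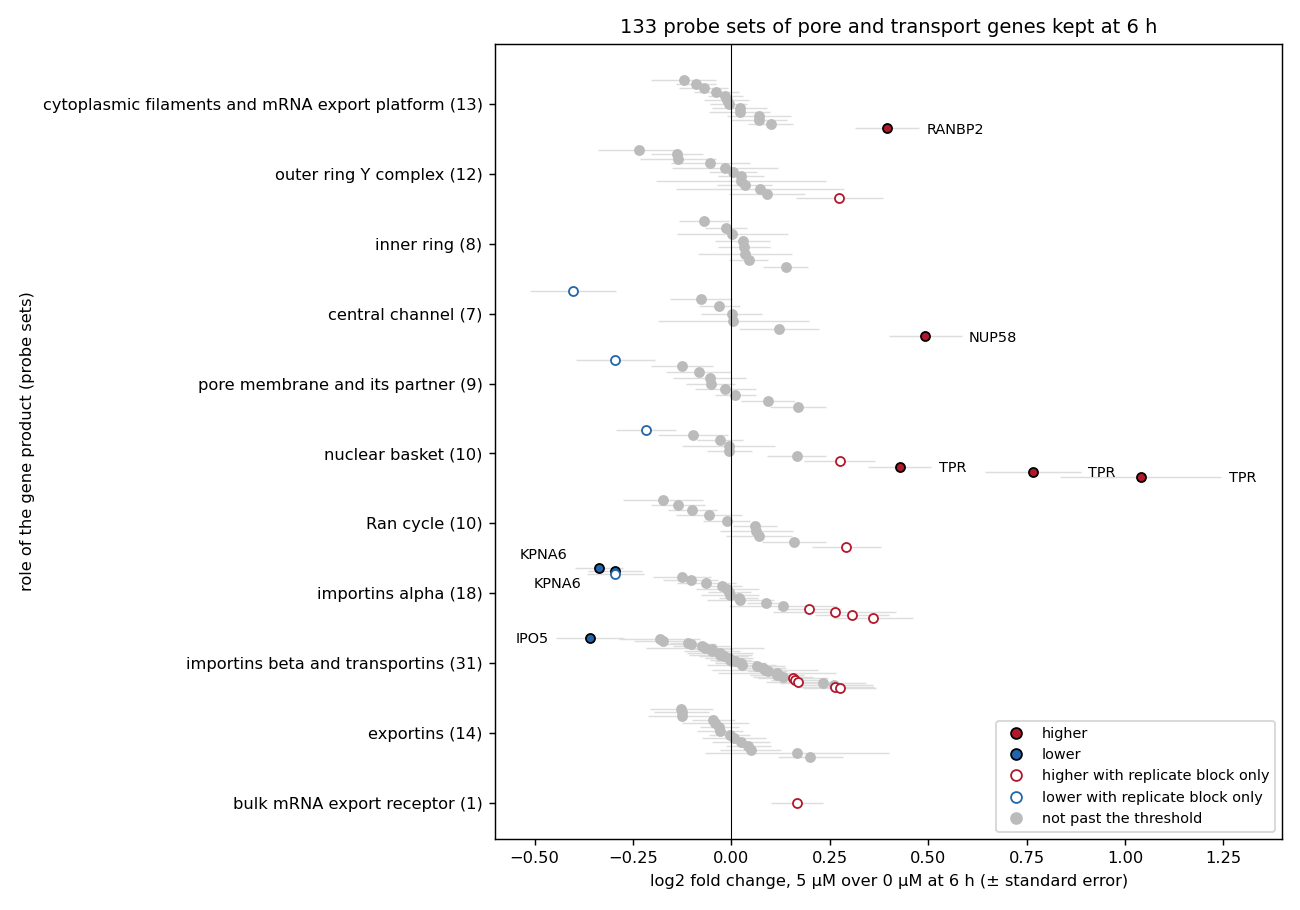
Log2 fold change of 5 over 0 μM at 6 h (horizontal axis) of the 133 probe sets kept, in rows by the role of the gene product, with the number of probe sets in brackets. Points are estimates and lines ± 1 standard error, filled red or blue where the test was passed and open where it was passed with the replicate block only. TPR at 1.04 and 0.77 lies farthest to the right, before NUP58 223984_s_at at 0.49 and the third TPR probe set at 0.43, and NUP58 225047_at at −0.40 (block only), IPO5 at −0.36 and KPNA6 at −0.34 and −0.30 lie at the left.

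The 8 calls at 6 h were sensitive to single arrays. Without untreated array 1 there were 17, without untreated array 2 none, and without untreated array 3 only TPR 201730_s_at. Without 1 μM array 2 there were 5 calls (the 3 of TPR, NUP58 223984_s_at and RANBP2 201711_x_at), and without any 1 of the 5 μM arrays none. With untreated arrays 2 and 3 both left out, none of the 133 passed, and the 8 differences kept their signs. When each gene was represented only by its brightest probe set, none of the 51 genes passed, and 0.0586% of all genes did (7 of 11943).

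Several probe sets of 1 gene often disagreed in these data. Of the 37 listed genes with more than 1 kept probe set, 25 (67.6%) had estimates of both signs for 5 against 0 μM at 6 h, and so had 56.8% of 5695 genes in all. The median range between the lowest and the highest estimate within a gene was 0.17 for the listed genes and 0.18 for all. The largest ranges were those of TPR (1.07), NUP58 (0.89), KPNA1 (0.65), KPNA6 (0.64), IPO5 (0.59) and NUP50 (0.49). With the block, NUP58, KPNA1, KPNA6 and NUP50 had calls in both directions, as had 194 genes in all. Without the block no listed gene did, and 6 of all genes did. Whether the probe sets of a gene read different transcripts was not tested.

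**Figure D3:**
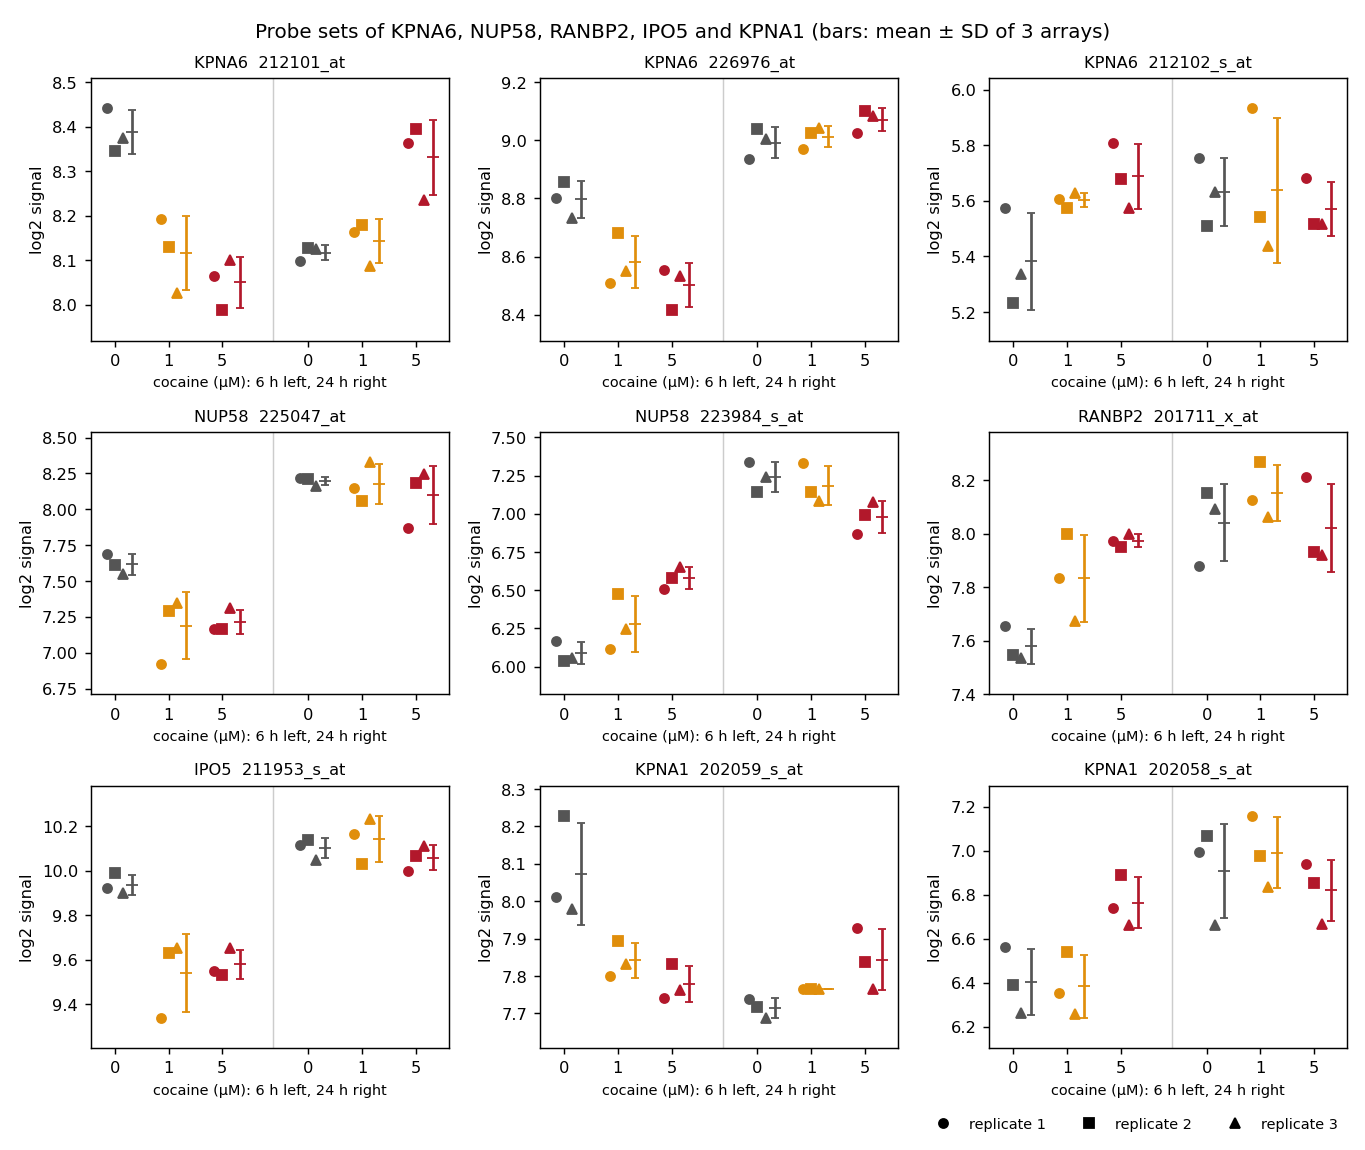
Log2 signal (vertical axis, a scale of its own in each panel) at 9 probe sets of KPNA6, NUP58, RANBP2, IPO5 and KPNA1 on each array, by cocaine dose in μM (horizontal axis), 6 h left and 24 h right. Points are arrays, marked by replicate number, and bars are means ± SD of 3 arrays. At 6 h, KPNA6 212101_at and 226976_at are lower with cocaine while 212102_s_at is not, and NUP58 223984_s_at and 225047_at differ from the untreated arrays in opposite directions.

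The comparison of 1 with 0 μM at 6 h used the same untreated arrays. No probe set of the listed genes passed, and percent called was 0 over all 22455. At an unadjusted p under 0.05 there were 21 of the 133 (15.8%, against 14.3% of all), 10 of them higher (5.91% of all) and 11 lower (8.43% of all). With the block 15 passed (11.3%, against 12.5% of all), 6 higher (5.11% of all) and 9 lower (7.44% of all). Without overlap there were 11 higher (8.27%, against 7.27% of all) and 18 lower (13.5%, against 10.2% of all). The 4 smallest p-values belonged to probe sets described above. IPO5 211953_s_at differed by −0.40 ± 0.0873 (adjusted p = 0.162, and 0.0491 with the block) and KPNA6 212101_at by −0.27 ± 0.0616 (0.163, and 0.0510 with the block). NUP58 225047_at differed by −0.43 ± 0.110 (0.184, and 0.0656 with the block) and NXT1 218708_at by 0.25 ± 0.066 (0.192, and 0.0419 with the block). At TPR, 1557227_s_at differed by 0.54 ± 0.205 (0.298, and 0.0763 with the block), 201730_s_at by 0.22, 215220_s_at by 0.09, 201731_s_at by −0.06 and 228709_at by −0.14. Without untreated array 1, 2 probe sets passed, KPNA6 212102_s_at and NUP50 222583_s_at.

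Between 5 and 1 μM at 6 h no listed probe set passed, with or without the block, and percent called was 0 over all. At an unadjusted p under 0.05 there were 10 (7.52%, against 6.45% of all), and each of the 10 was higher with 5 μM (3.67% of all were higher and 2.78% lower). Without overlap there were 16 higher (6.26% of all) and 9 lower (7.28% of all). TPR 215220_s_at, where the 5 μM arrays lay above all of those with 1 μM, had the smallest p, with a difference of 0.68 ± 0.122 (adjusted p = 0.468). It was followed by IPO9 244703_x_at (0.40 ± 0.0981, adjusted p = 0.570), KPNA1 202058_s_at (0.38, 0.619) and NUP58 223984_s_at (0.30, 0.633). At TPR 1557227_s_at and 201730_s_at the mean with 1 μM lay between those of the other doses, and at 215220_s_at it lay close to the untreated mean.

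At 24 h, none of the 138 probe sets passed for 5 against 0 μM, for 1 against 0 μM or for 5 against 1 μM, and this held with the block. Over all 24307 probe sets, percent called was 0.0123, 0 and 0.00823 in these comparisons, or 3, 0 and 2 probe sets. For 5 against 0 μM, 26 listed probe sets had an unadjusted p under 0.05 (18.8%, against 7.2% of all), 19 higher (4.21% of all) and 7 lower (2.99% of all). Without overlap between the groups there were 24 higher (17.4%, against 5.94%) and 8 lower (5.8%, against 4.51%).

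The probe set with the smallest p at 24 h was 207740_s_at of NUP62, the best known of the channel nucleoporins. It was at 7.71, 7.65 and 7.57 without cocaine, at 7.86, 7.91 and 7.88 with 1 μM and at 8.09, 8.0 and 8.08 with 5 μM. The 3 dose groups did not overlap, and the difference of 5 from 0 μM was 0.41 ± 0.0572 (adjusted p = 0.255). At the brighter probe set of NUP62, 202153_s_at, the means at 24 h were 10.00, 10.02 and 10.03 with 0, 1 and 5 μM. TNPO3, which imports splicing factors rich in serine and arginine, was at 8.62, 8.67 and 8.59 at 214550_s_at without cocaine and at 8.95, 8.97 and 8.91 with 5 μM, a difference of 0.32 ± 0.0663 (adjusted p = 0.386).

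At the TPR probe sets that were called at 6 h, the arrays with 5 μM were lower than the untreated ones at 24 h or overlapped them. At 1557227_s_at the signals were 8.47, 8.87 and 8.71 without cocaine, 8.53, 8.50 and 8.47 with 1 μM and 8.18, 8.04 and 8.24 with 5 μM, and 5 differed from 0 μM by −0.53 ± 0.10 (adjusted p = 0.379). At 215220_s_at they were 6.26, 6.80 and 6.57 without cocaine, 6.51, 6.19 and 6.26 with 1 μM and 5.34, 5.59 and 6.02 with 5 μM, a difference of −0.89 ± 0.189 (adjusted p = 0.386). The arrays with 5 μM were below all others of 24 h at both. At 201730_s_at the groups overlapped, with 10.86, 11.24 and 11.18 without cocaine and 11.07, 10.85 and 10.78 with 5 μM, a difference of −0.19 ± 0.111 (adjusted p = 0.760). The remaining pair, 201731_s_at and 228709_at, had differences of 0.08 and 0.07.

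For 1 against 0 μM at 24 h, 11 listed probe sets had an unadjusted p under 0.05, and all were higher with cocaine (7.97%, against 2.07% of all higher and 3.37% in either direction). No overlap was found for 20 higher (14.5%, against 4.41%) and for no lower ones (2.79% of all). Of the 138 estimates, 109 were above 0 with a median of 0.05, and the median over all probe sets was 0.02. NUP62 207740_s_at (0.24 ± 0.0572), XPO7 208459_s_at (0.20 ± 0.0519), NUP205 222382_x_at (0.24 ± 0.0673) and NUP50 222583_s_at (0.33 ± 0.101) had the smallest p, each with an adjusted p of 1.00. At XPO7, an exportin, the signals were 7.41, 7.47 and 7.44 without cocaine and 7.65, 7.68 and 7.60 with 1 μM. For 5 against 1 μM, 10 had an unadjusted p under 0.05 (7.25%, against 6.12%), and the smallest p belonged to TPR 215220_s_at (−0.67 ± 0.189, adjusted p = 0.648), TPR 1557227_s_at (−0.34 ± 0.10, 0.681), IPO8 205701_at (−0.32 ± 0.101, 0.711) and KPNA6 212101_at (0.19 ± 0.0591, 0.711).

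Whether the change from 0 to 5 μM differed between 6 and 24 h was tested on all 18 arrays, with the change at 24 h subtracted from that at 6 h. Of the 133 probe sets, 15 passed, and they belonged to 10 genes (11.3%, against 4.21% of all, 941 of 22358). The contrast was positive at 5 probe sets, 3 of TPR, 1 of NUP58 and 1 of IPO9 (1.97% of all), and negative at 10 (2.24% of all). With the block 33 passed (24.8%, against 15.9% of all), 15 positive (6.44% of all) and 18 negative (9.46% of all). The median contrast was −0.06 for the listed genes and −0.02 for all.

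TPR had the 2 largest contrasts. At 215220_s_at the change was 0.77 at 6 h and −0.89 at 24 h, a contrast of 1.66 ± 0.239 (adjusted p = 0.00362). At 1557227_s_at it was 1.04 and −0.53, a contrast of 1.57 ± 0.242 (0.00531), and at 201730_s_at 0.43 and −0.19, a contrast of 0.62 ± 0.142 (0.0380). The first 2 passed under all 28 alternatives, also without untreated arrays 2 and 3 of 6 h (1.54 and 1.29), and the third passed in 27 of 28, the exception being that one (0.68, adjusted p = 0.104).

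NUP58 223984_s_at lay between the second and the third of these, with 0.49 at 6 h and −0.26 at 24 h, a contrast of 0.75 ± 0.131 (adjusted p = 0.00872). At 24 h this probe set was at 7.34, 7.14 and 7.24 without cocaine and at 6.87, 6.99 and 7.08 with 5 μM. NUP58 225047_at (−0.40 at 6 h) had means at 24 h of 8.20 without cocaine and 8.10 with 5 μM. Its contrast was thus negative, and it did not pass. IPO9 had contrasts of both signs, 0.67 ± 0.174 at 244703_x_at (0.0635) and −0.24 ± 0.0707 at 217885_at (0.0928).

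The negative contrasts were those of probe sets whose difference was lower at 6 h than at 24 h. KPNA6 212101_at, with −0.34 at 6 h and 0.21 at 24 h, had −0.55 ± 0.0804 (adjusted p = 0.00402). Its signals at 24 h were 8.10, 8.13 and 8.12 without cocaine and 8.36, 8.40 and 8.24 with 5 μM, without overlap. KPNA6 226976_at had −0.37 ± 0.0814 (0.0303) and KPNA1 202059_s_at −0.42 ± 0.0884 (0.0241). Probe sets of the same genes also had contrasts of the other sign. At KPNA6 212102_s_at (0.31 at 6 h) the means at 24 h were 5.63 without cocaine and 5.57 with 5 μM. At KPNA1 202058_s_at (0.36 at 6 h) they were 6.91 and 6.82. Both contrasts were thus positive, and neither passed. XPO5, which exports microRNA precursors, had −0.44 ± 0.10 at 223057_s_at (0.0374), with 8.15, 8.14 and 8.11 without cocaine and 8.31, 8.57 and 8.47 with 5 μM at 24 h. NUP62 207740_s_at had −0.41 ± 0.0942 (0.0404), with a difference of 0.00 at 6 h. The 2 TNPO3 probe sets 214550_s_at and 212318_at had −0.39 and −0.36, NUP210 212315_s_at −0.39 and NUP205 222382_x_at −0.34 (adjusted p from 0.0503 to 0.0786). Of the 28 alternatives, the calls were lost in 20 for IPO9 217885_at, in 12 each for NUP210 and NUP205, in 8 for IPO9 244703_x_at, in 3 for TNPO3 214550_s_at and in 7 for TNPO3 212318_at. XPO5 and KPNA6 226976_at each lost the call in 1, without untreated arrays 2 and 3 of 6 h. NUP58, KPNA1, NUP62 and KPNA6 212101_at passed in all 28.

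**Figure D4:**
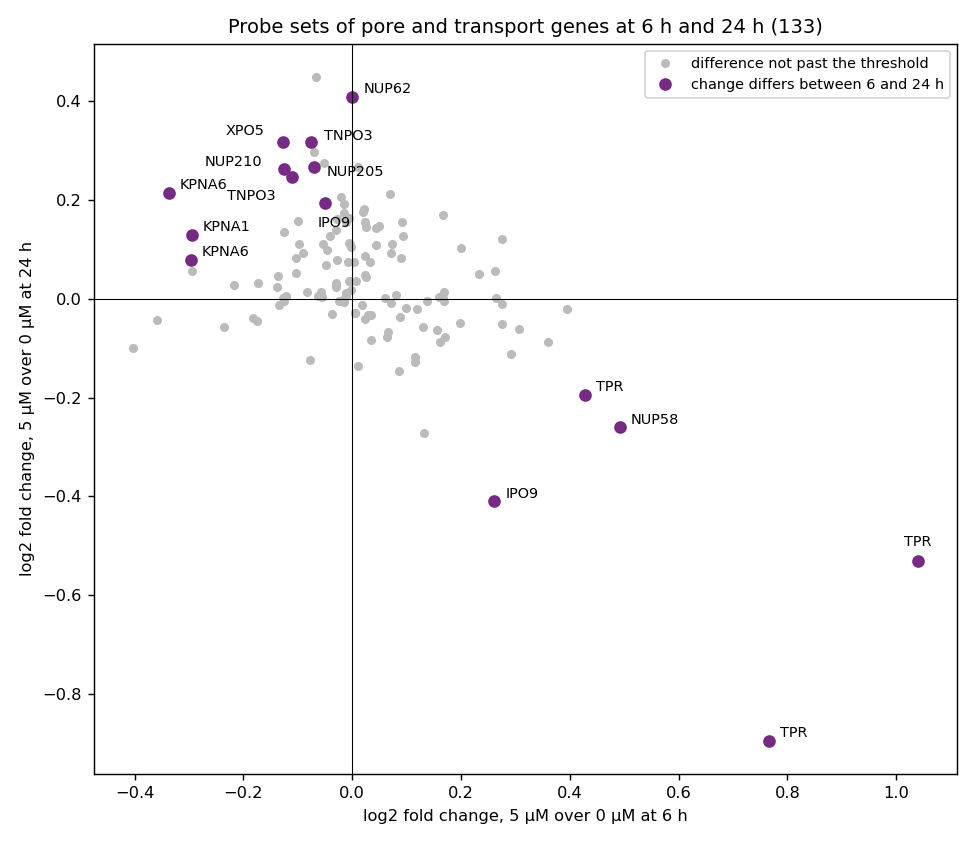
Log2 fold change of 5 over 0 μM at 6 h (horizontal axis) and at 24 h (vertical axis) of the 133 probe sets tested at both times. Each point is a probe set, and purple points with a gene name are the 15 whose change differed between the times. Among the purple points, the 3 of TPR and that of NUP58 lie at the lower right, above 0 at 6 h and below 0 at 24 h. Both purple points of KPNA6 lie at the upper left. Other probe sets of TPR, NUP58 and KPNA6 are among the grey points.

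The ACTB 3′ minus 5′ signal, given above, had opposite differences at the 2 times as well (−0.34 and 0.30), while that of GAPDH differed by −0.02 and 0.02. Their part in the contrasts was not tested.

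Other genes of the pathway that were not on the list, such as helicases of mRNA export, SUMO enzymes at the pore and lamins, numbered 46, and 36 of them had a kept probe set. For 5 against 0 μM at 6 h, 2 of their 70 probe sets passed (2.86%, against 2.98% of all). With the block 3 of the 70 were higher (7.75% of all) and 11 lower (10.9% of all). SENP1, a SUMO protease found at the pore, was higher at 1552812_a_at, with 5.34, 4.94 and 5.19 without cocaine and 5.70, 5.53 and 5.72 with 5 μM, a difference of 0.49 ± 0.109 (adjusted p = 0.0832). Its means with 0 and 1 μM (5.16 and 5.31) were below the filter of 5.32 and that with 5 μM (5.65) above it, so that it was kept only through the group in which it was high. Its other probe set, 226619_at, had a difference of −0.20 (adjusted p = 0.326). SARNP, an mRNA export factor, was lower at 224914_s_at, with 10.41, 10.41 and 10.33 without cocaine and 10.19, 10.10 and 10.11 with 5 μM, a difference of −0.24 ± 0.0506 (adjusted p = 0.0735). None of these genes passed in the other comparisons within a time. With the block, 1 probe set was higher and 5 were lower for 1 against 0 μM at 6 h (5.11% and 7.44% of all). Between the times 1 of 70 passed (1.43%, against 4.21% of all), and with the block 2 were positive and 9 negative (6.44% and 9.46% of all). The one that passed was LMNB2, a lamin of the nuclear envelope, with a contrast of −0.40 ± 0.0590 at 216952_s_at (adjusted p = 0.00433).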

How the data were processed

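The authors ran RMA from the affy library on the array intensities, once for the arrays of each time, and deposited the resulting log2 signals. Versions are not given in the sources used here. All probe sets were present, before the signal filter of the authors. The 5 μM arrays also carry label words for untreated controls, and the dose in their titles was used.

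Probe sets with a mean above log2(40) over the 9 arrays of a time and a gene symbol were kept, apart from 6 array controls with a symbol. Genes were named from the platform annotation (41097 probe sets with 1 symbol, 1801 with several, which were not named, and 11777 with none), and 41043 of the first matched RefSeq by gene ID. Doses were compared with limma 3.58.1 in R 4.3.3 (lmFit, eBayes) on the 9 arrays of a time, and the changes at both times as a contrast over 18 arrays, with Benjamini-Hochberg adjustment over all probe sets kept and a threshold of 0.10. Plots were drawn with matplotlib 3.10.9 in Python 3.11.15. The fit was tested on simulated data with independent noise on each array. These data held no pairing of replicates and no array-wide differences, so the test does not cover either. Precision is limited by the number of arrays, 3 per dose and time.

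The list of genes, their roles, the other pathway genes and the markers were chosen with earlier results of these data known. Named were all TPR probe sets, every probe set called, others of the same gene, the smallest p of each role at 6 h, and the 4 smallest p in each other comparison within a time. The probe sets of KPNA1 and NUP50, and others called with the block, were named after their values were seen.

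The titles number the replicates alike at each dose. Deviations from the group means correlated at 0.377 to 0.768 (6 h) and 0.424 to 0.733 (24 h) between arrays of the same number, in 9 pairs each. Between others they correlated at −0.632 to 0.0711 and −0.575 to 0.165, in 18 pairs each. The 3 deviations of a group sum to 0, so high values for the same number push the others below 0. The lower range is thus no separate sign of pairing. The numbers were taken to pair the arrays, and blocked values stand beside the results they change. Alternatives were the block, signal filters, probe sets without a symbol, median centring, quantile normalization, an intensity trend, array weights, a threshold of 0.05, the 6 arrays of the doses compared, each array left out, untreated arrays 2 and 3 of 6 h left out and, chosen after seeing the data, the brightest probe set of each gene. Protein and probe sequences were not used here.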

Additional observations from a re-analysis of the deposited data

Results flagged for a closer look

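The change from 0 to 5 μM cocaine differed between 6 and 24 h, by the contrast over all 18 arrays, at 15 probe sets of the listed genes and at LMNB2, and this difference between the times is what marked them. The contrasts were 1.66 (TPR 215220_s_at), 1.57 (TPR 1557227_s_at), 0.75 (NUP58 223984_s_at), 0.67 (IPO9 244703_x_at) and 0.62 (TPR 201730_s_at) in the positive direction. In the negative direction they were −0.55 (KPNA6 212101_at), −0.44 (XPO5 223057_s_at), −0.42 (KPNA1 202059_s_at), −0.41 (NUP62 207740_s_at), −0.39 (TNPO3 214550_s_at), −0.39 (NUP210 212315_s_at), −0.37 (KPNA6 226976_at), −0.36 (TNPO3 212318_at), −0.34 (NUP205 222382_x_at), −0.24 (IPO9 217885_at) and −0.40 (LMNB2 216952_s_at).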

How the results depend on the processing

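For 5 against 0 μM at 6 h (8 probe sets of the listed genes called), the replicate block gave 25, array weights 22, the 6 arrays of both doses 4, a threshold of 0.05 1, and leaving out both untreated arrays 2 and 3 gave 0, as did the brightest probe set per gene. Leaving out 1 array gave 0 to 17. For 1 against 0 μM at 6 h (0), the block gave 15, array weights 4, and 1 array left out 0 to 2. For the contrast between the times (15), the block gave 33, a threshold of 0.05 9, both untreated arrays left out 8, and the brightest probe set per gene 3 (TPR, TNPO3 and KPNA6). The block changed no call in the comparison of 5 with 1 μM at 6 h or in those at 24 h. Why the counts moved was not tested. Of 580 alternative values for probe sets called, 447 kept direction and call, 133 lost the call and 0 changed sign. Of 985 for probe sets not called, 18 gained a call and 26 changed sign, all 26 at TPR and at most 0.147 in size. With quantile normalization these were 201731_s_at (0.013) and 228709_at (0.0115) for 5 against 0 μM at 6 h and 201731_s_at (0.00687) for 5 against 1 μM at 24 h. Without untreated arrays 2 and 3 of 6 h, 201731_s_at was at 0.0132 and 228709_at at 0.147 for 5 against 0 μM, 215220_s_at at −0.0362 and 228709_at at 0.0159 for 1 against 0 μM, and 228709_at at 0.0722 for the contrast between the times. With 1 array left out at 6 h, TPR values ranged from −0.0508 to 0.00449 (201731_s_at) and −0.0844 to 0.0856 (228709_at) for 5 against 0 μM, from −0.00197 to 0.20 (215220_s_at) for 1 against 0 μM, and from −0.0072 to 0.0606 (201731_s_at) for 5 against 1 μM. At 24 h they ranged from −0.00861 to 0.13 (201731_s_at) and −0.0104 to 0.14 (228709_at) for 5 against 0 μM, from −0.17 to 0.0137 (201730_s_at) and −9.2e-05 to 0.14 (201731_s_at) for 1 against 0 μM, and from −0.0252 to 0.0166 (201731_s_at) and −0.12 to 0.024 (228709_at) for 5 against 1 μM. For the contrast 228709_at ranged from −0.16 to 0.0106.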
